A study of Arabidopsis thaliana with 72 samples.

Results

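The transcripts followed here belong to 10 Arabidopsis thaliana loci of flavonoid synthesis, out of 22122 loci in the deposited table. They were chosen by locus identifier, and all 10 were present: the enzymes CHS (AT5G13930), CHI (AT3G55120), F3H (AT3G51240), F3'H (AT5G07990), FLS1 (AT5G08640), DFR (AT5G42800) and LDOX (AT4G22880), and the MYB transcription factors MYB12 (AT2G47460), MYB111 (AT5G49330) and PAP1 (AT1G56650). Their names follow the RefSeq annotation or common usage. The study sequenced RNA from shoots and roots of seedlings 14 days old grown on agar plates, in 72 libraries that form 24 groups of 3. For each organ there were 5 groups given citral (202 µM, a monoterpene aldehyde mixture found in lemongrass oil) and sampled at 1, 3, 6, 12 and 24 h, 6 groups given the solvent (0.1% ethanol) and sampled at 0 h and at the same 5 times, and 1 untreated group at 0 h. Treatment began 7 h into a light period of 16 h that was followed by 8 h of dark. By these labels the 12 h samples fall in another part of the day than the 0 h and 24 h samples. The clock gene LHY, given below, does not bear out that 0 h and 24 h match. The labels disagree on the agent: their protocol for treatment gives t-chalcone (21 µM), while the agent labels, design text and title give citral, and the groups below follow the agent labels.

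Flavonoids are plant phenolics that screen ultraviolet light and that, as anthocyanins, colour stressed shoots red. Chalcone synthase (CHS) joins a phenylpropanoid starter with malonyl units, chalcone isomerase (CHI) closes the ring, and flavanone 3-hydroxylase (F3H) makes dihydroflavonols, which flavonoid 3'-hydroxylase (F3'H) can hydroxylate further. From there flavonol synthase (FLS1) leads to flavonols, while dihydroflavonol reductase (DFR) and leucoanthocyanidin dioxygenase (LDOX) lead to anthocyanins. MYB12 and MYB111 are known activators of the early enzymes and FLS1 (MYB12 mainly in roots, MYB111 mainly in shoots), and PAP1, with bHLH partners, activates the late enzymes DFR and LDOX.

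Levels are given in CPM, the recovered reads of a locus per 1000000 reads of its library (written M reads below), and comparisons as log2 fold changes ± standard error from a limma model. A locus was called where its Benjamini-Hochberg adjusted p over all loci tested was under 0.05 and it had enough reads. Between 2 groups, at least 2 libraries of the higher group had to hold 3 reads or more. The F tests of citral effects needed this in the citral or the ethanol group of every time. The ethanol course needed it in every ethanol group. The organ difference needed it in the citral or the ethanol group of each organ, at every time tested. Citral libraries held 1.58 to 3.63 M reads, with a median of 3.43, against a median of 11.4 M reads over the 42 control libraries, so a locus at 1 CPM rests on few reads after citral. Of the controls 4 held under 0.5 M reads (shoot ethanol 12 h replicate 2, shoot ethanol 24 h replicate 3, root ethanol 0 h replicate 1 and root ethanol 3 h replicate 1). They are left out of means but kept in the tests. Their library quality weights in the fits per organ were 0.023, 0.973, 0.534 and 0.617, in that order. Only the first was thus strongly down-weighted by library quality. Shoot markers (RBCS1A, LHCB3, LHCB1.1 and GUN5) summed to 3854 to 27238 CPM in shoots and to 47.0 to 247 CPM in roots, and root markers (COBL9, CASP1, PHT1;1 and RHD2) to 4.0 to 37.8 CPM in shoots and to 201 to 1038 CPM in roots, in libraries of 0.5 M reads or more, so each organ label fits its markers. In shoots the 4 shoot markers were lower after citral than after ethanol, all of them at 1, 3 and 6 h and 3 of 4 at 12 and 24 h. In roots 3 of 4 root markers were lower after citral at 1, 3, 12 and 24 h and 2 of 4 at 6 h, and 1 was higher at 1, 3 and 6 h. Over all loci tested 7.93% to 26.4% were lower in shoots at these times, and 18.1% to 26.1% in roots. The part of these shifts in the results for the flavonoid genes was not tested. The whole samples are organs, so fewer expressing cells and less RNA per cell cannot be told apart. Nothing says that the libraries of a group came from separate plates, and the spread that the p-values rest on may be technical. LHY, a clock gene read as a check of the time of day, differed between 0 h and 24 h of ethanol. In shoots it had 16.7, 13.8 and 17.7 CPM at 0 h, against 395 and 418 CPM at 24 h in libraries of 0.5 M reads or more. In roots it had 8.24 and 6.52 CPM at 0 h in such libraries, against 79.1, 77.6 and 63.2 CPM at 24 h. The reason was not tested.

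The bases just before these genes are shown because the factors above act there. Of the 250-base windows before the 10 gene starts, 4 held the G-box CACGTG (CHS, F3H, DFR and MYB12), the element bound by bZIP factors such as HY5, against 7.25% of 21969 such windows over loci of the table. The shorter core ACGT, which lies inside every G-box, was in 5 of 10 windows against 44.7% of all. Of 2 sequences bound by MYB12 and its relatives, ACCNACC was in 2 windows (DFR and MYB12) against 6.40% of all, and ACCTAC in 2 (F3H and MYB111) against 4.68%. The looser E-box CANNTG, which also covers every G-box, was in 7 of 10 against 56.4%. Matches were read on both strands and are descriptions of letters, not of bound sites. The windows with a G-box follow, 5′ to 3′ on the gene's strand, from RefSeq's TAIR10.1, with ACGT cores and both MYB sequences in capitals; CHS lies at chr5:4488226-4488475, plus strand, F3H at chr3:19024942-19025191, plus strand, DFR at chr5:17166033-17166282, minus strand and MYB12 at chr2:19476076-19476325, plus strand.
CHS: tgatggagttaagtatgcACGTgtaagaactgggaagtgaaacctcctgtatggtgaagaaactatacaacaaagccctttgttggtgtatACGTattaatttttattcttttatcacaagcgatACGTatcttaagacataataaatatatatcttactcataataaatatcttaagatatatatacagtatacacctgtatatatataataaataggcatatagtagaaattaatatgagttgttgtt
F3H: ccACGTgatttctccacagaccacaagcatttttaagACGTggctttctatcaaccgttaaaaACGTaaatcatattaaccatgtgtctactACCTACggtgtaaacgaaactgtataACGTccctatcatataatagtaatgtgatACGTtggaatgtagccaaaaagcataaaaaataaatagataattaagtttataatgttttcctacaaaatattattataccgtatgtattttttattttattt
DFR: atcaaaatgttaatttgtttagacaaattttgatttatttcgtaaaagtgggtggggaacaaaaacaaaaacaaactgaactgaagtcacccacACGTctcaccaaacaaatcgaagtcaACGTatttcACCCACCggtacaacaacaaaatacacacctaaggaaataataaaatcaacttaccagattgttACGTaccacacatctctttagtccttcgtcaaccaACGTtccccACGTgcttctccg
MYB12: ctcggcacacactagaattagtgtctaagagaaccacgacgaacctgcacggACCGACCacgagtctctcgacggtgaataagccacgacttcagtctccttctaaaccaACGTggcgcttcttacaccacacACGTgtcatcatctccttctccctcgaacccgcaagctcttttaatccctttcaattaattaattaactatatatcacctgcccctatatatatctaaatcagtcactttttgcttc

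The CHS window carried 3 ACGT cores, the F3H window 5 and the DFR window 5. On the same build CHS spans chr5:4488476-4490264, F3H chr3:19025192-19026872, DFR chr5:17164093-17166032 and MYB12 chr2:19476326-19479597. CHI lies at chr3:20430059-20431597, F3'H at chr5:2560328-2563137, FLS1 at chr5:2803833-2805606, LDOX at chr4:12004726-12006209, MYB111 at chr5:19998823-20001572 and PAP1 at chr1:21233555-21235292. The reads of CHS and F3H lie on loci that overlap a gene on the other strand (AT5G13940 and the long non-coding RNA AT3G51238, neither in the table), and whether the counting used strand is not given in the sources used here.

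Before treatment the early and late enzymes were unequal between the 2 organs in opposite directions. In untreated seedlings CHS averaged 38.4 ± 27.8 CPM in shoots and 186 ± 51.6 CPM in roots (SD, n = 3 each), and FLS1 averaged 6.04 ± 2.63 CPM in shoots and 38.7 ± 16.9 CPM in roots. The late enzymes ran the other way, with DFR at 17.3, 75.2 and 27.5 CPM in the shoot libraries, against 7 reads (0.663 CPM) in 1 root library and the lowest value of the table in the other two. LDOX had 10.1, 35.4 and 11.6 CPM in shoots, against 3 reads in 1 root library and none above the lowest value in the others. Pooled over libraries, DFR was 169-fold higher in shoots (exact 95% interval from read counts 81.8 to 421) and LDOX 184-fold higher (62.7 to 894), intervals that cover counting error only. Values at the lowest of the table counted as 0 reads in these pools, and the intervals do not cover this scoring. Across untreated shoots and roots 9 of 10 members were called, against a background of 77.4% of 21086 loci. That share is near the background, and MYB12, MYB111 and PAP1 entered the test only through the organ where they are high, which leaves 6 of 7 called without them. DFR, LDOX, MYB111 and PAP1 were higher in shoots, while CHS (log2 difference -2.08 ± 0.44), FLS1 (-2.17 ± 0.52), CHI (-1.09 ± 0.44), F3H (-0.81 ± 0.30) and MYB12 (-3.36 ± 0.56) were lower in shoots. F3'H was not called (0.19 ± 0.37). The calls of CHI and F3H were lost without library quality weights, without shoot untreated replicate 1 or 3, and in limma-trend. Limma-trend fits the same groups to the log2 of CPM plus a pseudocount, with neither precision weights nor library quality weights. Libraries under 0.5 M reads therefore count in full there. The call of CHI was also lost without root untreated replicate 2.

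The MYB factors split by organ in the same samples. MYB12 had 5.69, 5.13 and 3.98 CPM in untreated roots, and at most 0.503 CPM in untreated shoots. MYB111 had 1.18, 0.916 and 0.818 CPM in untreated shoots and sat at the lowest value of the table in all 3 root libraries, and so was at least 9.1-fold higher in shoots (against 3 reads over the root group). PAP1 had 1.97, 2.29 and 2.01 CPM in untreated shoots, with no untreated root library above the lowest value, at least 20.4-fold higher by the same measure. In roots MYB111 and PAP1 never passed the filter of 1 CPM in 3 libraries, and in shoots MYB12 never did, so they have no test there.

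Ethanol alone at 0 h was already lower than no treatment for most of the pathway in shoots, and for 3 of 8 members tested in roots. The clock gene LHY was called lower in the same comparison (log2 fold -1.37 in shoots and -1.21 in roots). Whether the 2 groups differed in time of sampling was not tested. In shoots 7 of 9 members tested were lower in ethanol than in untreated seedlings, against 13.0% of 19571 loci: LDOX averaged 3.76 ± 0.408 CPM after ethanol and 19.0 ± 14.2 CPM untreated (SD, n = 3 each, log2 fold -1.99 ± 0.38, limma adjusted p = 0.000362), DFR 13.1 ± 2.18 and 40.0 ± 30.9 CPM (-1.23 ± 0.29), and PAP1 0.737 ± 0.625 and 2.09 ± 0.175 CPM (-1.84 ± 0.36). CHI, F3H, F3'H and FLS1 were also called, while CHS (-0.63 ± 0.36) and MYB111 (-0.05 ± 0.32) were not. The untreated shoot libraries were uneven, with all 7 enzymes highest in replicate 2, and these calls depended on the library quality weights: 7 were called with them, 1 without them and 0 in limma-trend with a pseudocount of 0.5 CPM. Without ethanol replicate 1 the count was 4 and without replicate 3 it was 3. In roots 3 of 8 members tested were lower after ethanol, against 11.5% of 20147 loci. These were CHS (60.5 and 43.9 CPM in 2 ethanol libraries, against 190, 236 and 133 CPM untreated), F3H (-1.44 ± 0.46) and FLS1 (-2.63 ± 0.95), and none was called without ethanol replicate 2 or 3, which left 1 ethanol library of full depth, or without untreated replicate 2; without untreated replicate 1 the count was 1.

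Members also differed between times in ethanol alone. In shoots 8 of 9 members tested and in roots 6 of 8 differed between the ethanol times (limma F test), against 80.0% and 64.7% of loci, shares near the background. The shoot count was 3 without 12 h replicate 1 or 3 and 5 without 24 h replicate 1 or 2, where the members lost missed the minimum of reads with an adjusted p of 0.0004 or less. The root count was 2 without 0 h replicate 2 or 3, where the adjusted p of CHI, FLS1 and MYB12 was 0.206 to 0.37 and F3'H missed the minimum of reads. Root CHS averaged 9.34 ± 5.70 CPM at 1 h, 431 ± 457 CPM at 6 h and 133 ± 30.3 CPM at 24 h (SD, n = 3 each). Shoot CHS after ethanol averaged 18.3 ± 4.6 CPM at 0 h and 3.37 ± 0.615 CPM at 1 h (n = 3 each), and held 69.4 and 101 CPM at 24 h in the 2 libraries of full depth. Libraries of 1 group could also differ widely in all enzymes at once. At 6 h of ethanol the 7 enzymes summed to 14.8, 113 and 20.9 CPM in the 3 shoot libraries and to 188, 419 and 1502 CPM in the 3 root libraries, a ratio of highest to lowest of 7.64 and 7.99. Every comparison with citral below is therefore made within 1 time.

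**Figure D1:**
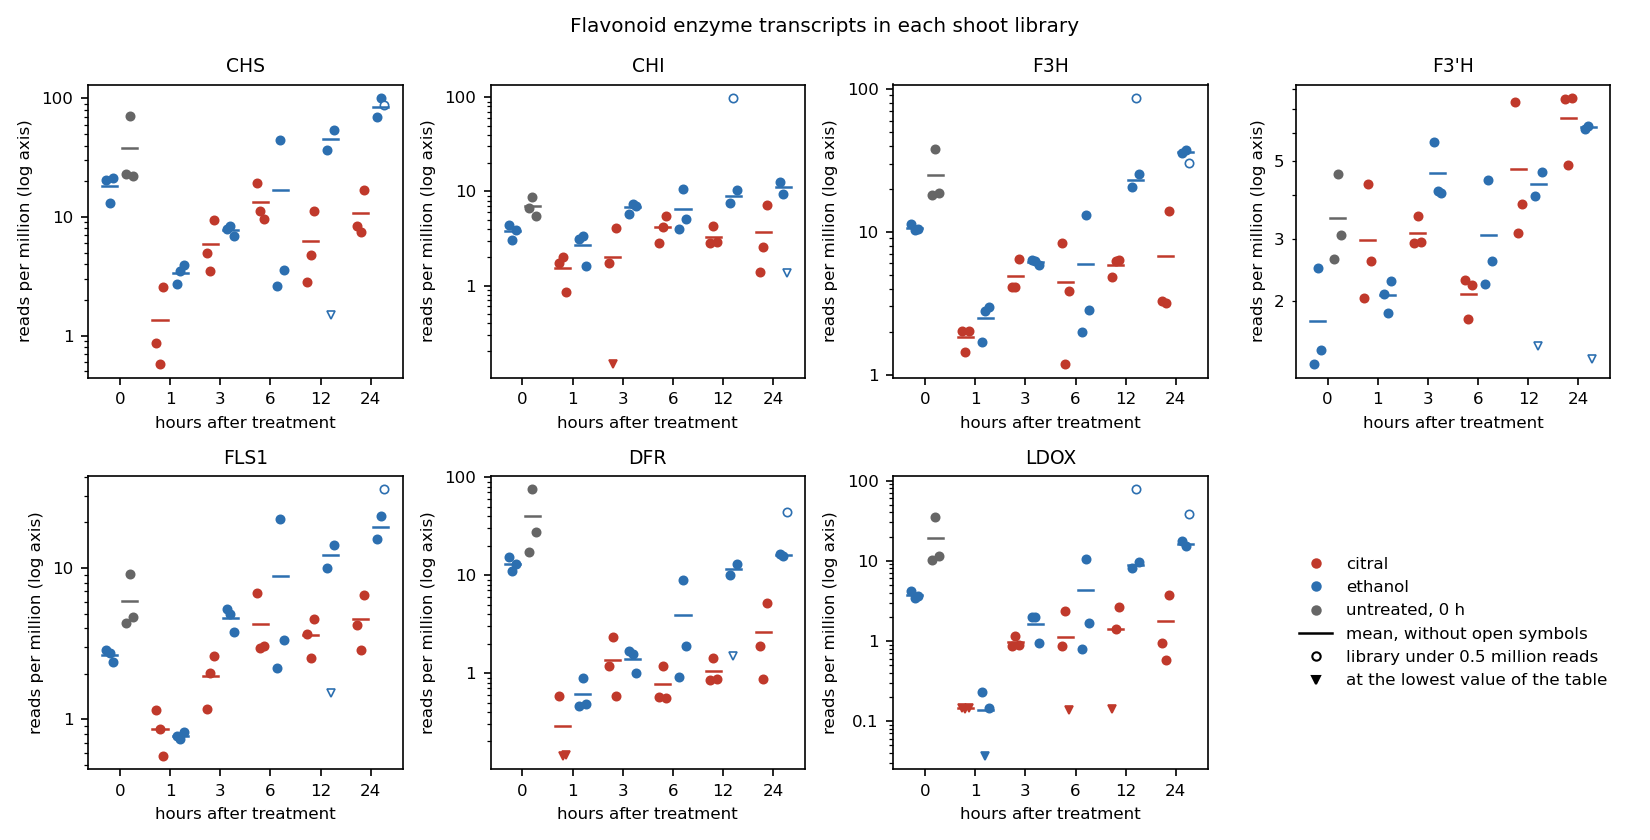
CPM (log axis) of the 7 enzymes in each shoot library by hours after treatment, citral in red left of ethanol in blue, and at 0 h ethanol left of untreated in grey; bars are means without the open symbols (libraries under 0.5 M reads), and triangles are values at the lowest of the table. At 12 and 24 h all citral libraries of CHS lie at or below 16.8 CPM and the ethanol libraries of full depth at or above 36.4 CPM, while F3'H groups overlap.

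In shoots few differences were called up to 6 h, and most of the enzymes were several-fold lower after citral at 12 and 24 h. At 12 h 7 of 9 members tested were lower after citral, against 19.0% of 19571 loci, and at 24 h 6 of 9, against 16.9%. The median log2 fold change of the members with enough reads was -1.87 at 12 h and -2.21 at 24 h, against -0.03 and -0.02 over all such loci. Both treatments were above their own 1 h levels by then: CHS after citral averaged 1.35 ± 1.09 CPM at 1 h and 10.9 ± 5.16 CPM at 24 h (SD, n = 3 each), and after ethanol 3.37 ± 0.615 CPM at 1 h, with 69.4 and 101 CPM at 24 h.

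CHS, the first committed step, had 2.82, 4.82 and 11.3 CPM after citral at 12 h, against 36.4 and 54.3 CPM after ethanol in the 2 libraries of full depth. The groups of full-depth libraries did not overlap, and the log2 fold change was -3.01 ± 0.74 (limma adjusted p = 0.00227). This call was lost in limma-trend (-1.34, adjusted p = 0.228) and without quality weights (-2.16, adjusted p = 0.0796). At 24 h CHS had 8.40, 7.45 and 16.8 CPM after citral, against 69.4 and 101 CPM after ethanol and 87.9 CPM in the third, shallow ethanol library. All 3 citral libraries were low, and the log2 fold change was -3.20 ± 0.71 (adjusted p = 0.00102). CHI, the next step, was lower at 3 h (-2.07 ± 0.57, adjusted p = 0.00335), 12 h (-1.32 ± 0.44) and 24 h (-1.89 ± 0.58). The 3 h call was lost in limma-trend (adjusted p = 0.0795 and 0.148 with its 2 pseudocounts). The 24 h call was lost in limma-trend (-0.82, adjusted p = 0.558), without quality weights (0.177), and without ethanol or citral replicate 1 or 2. CHI had 1.75 and 4.10 CPM and 1 value at the lowest of the table after citral at 3 h, against 5.82, 7.44 and 6.99 CPM after ethanol. F3H had 4.80, 6.24 and 6.37 CPM after citral at 12 h, against 20.4 and 25.3 CPM after ethanol (-1.94 ± 0.41, adjusted p = 0.000377). At 24 h F3H had 3.27, 3.15 and 13.9 CPM after citral, with replicate 3 apart from the other two, against 35.4 and 37.2 CPM after ethanol (-3.01 ± 0.54, adjusted p = 6.71e-05).

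Members of both branches after F3H were called lower at these times. FLS1, on the flavonol branch, had 3.67, 2.55 and 4.63 CPM after citral at 12 h, against 9.98 and 14.2 CPM after ethanol (-1.79 ± 0.52, adjusted p = 0.00734). This call too was lost in limma-trend (-0.66, adjusted p = 0.39) and without quality weights (-1.39, adjusted p = 0.126). At 24 h FLS1 was also lower (-2.21 ± 0.59, adjusted p = 0.00452). On the anthocyanin branch DFR had 0.847, 1.42 and 0.868 CPM after citral at 12 h, against 9.98 and 13.0 CPM after ethanol (-3.24 ± 1.00, adjusted p = 0.0123). These DFR values rest on 3 to 5 reads per citral library. LDOX had 0.933, 0.573 and 3.77 CPM after citral at 24 h, against 17.5 and 15.2 CPM after ethanol (-3.95 ± 1.09, adjusted p = 0.00601). F3'H stood apart, with 7.46, 4.87 and 7.54 CPM after citral at 24 h, against 6.13 and 6.29 CPM after ethanol (0.02 ± 0.32), and it was not called at any time. In all 5 time points together a citral effect was found for 7 of 9 shoot members tested, all but F3'H and PAP1 (limma F test), against 71.4% of loci, a share near the background. An effect that itself differed between times was found for F3H only (adjusted p = 0.00773), 1 of 9 against 51.5% of loci, with none without citral 24 h replicate 2 and 3 members without ethanol 6 h replicate 2.

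At 1 h and at 6 h none of the 9 members tested was called in shoots, against 20.5% and 41.5% of loci in either direction. At both times 0 members with enough reads had an unadjusted p under 0.05, and limma-trend also called 0. At 6 h the shoot ethanol group was the uneven one described above, and without its replicate 2 CHS was called higher after citral (log2 fold 2.11). Only CHI was called at 3 h, against 26.4% of loci lower, a share of members below the background; limma-trend called 0 at that time. The 12 h counts leaned on few libraries, since ethanol replicate 2 there had 73.9% of loci at the lowest value and a weight of 0.023. Without ethanol replicate 1 the count of 7 became 1, and without ethanol replicate 3 it became 0, with fold changes of the same sign. Leaving out citral replicate 1, 2 or 3 left 4, 2 and 4 members called. At 24 h leaving out citral replicate 1 or 2 left 3 and 2.

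**Figure D2:**
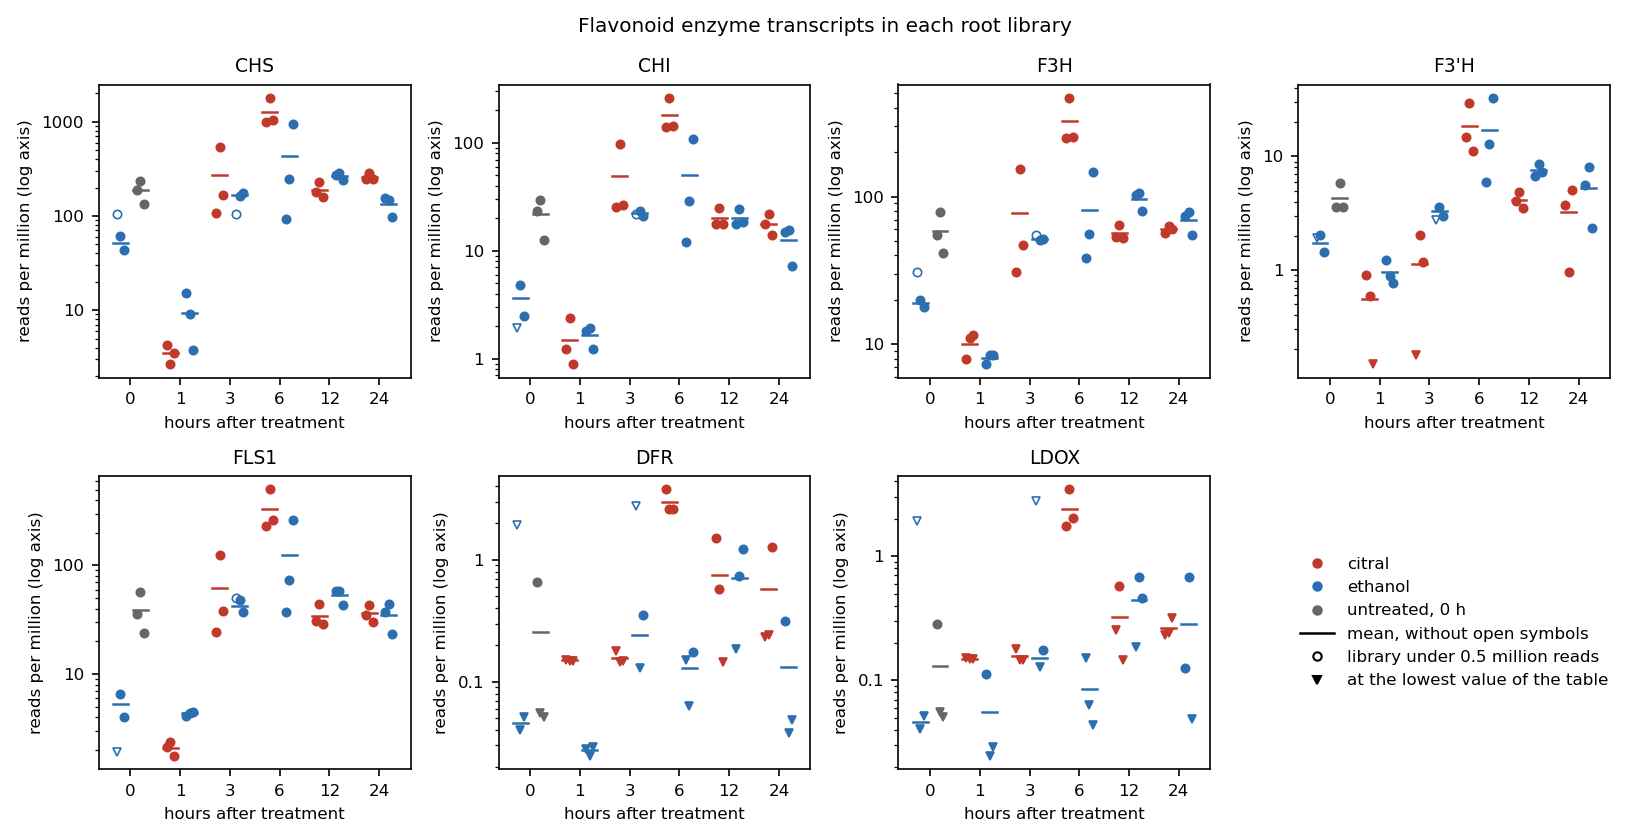
CPM (log axis) of the 7 enzymes in each root library by hours after treatment, drawn as for shoots. At 6 h all citral libraries of CHS lie at or above 996 CPM and the ethanol libraries spread between 93.4 and 951 CPM, and DFR and LDOX rise above the lowest value in all 3 citral libraries there.

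In roots every call ran upward. Before 6 h only MYB12 was called, at 1 and 3 h, and the earliest enzyme called in either organ was CHI in shoots at 3 h. The order of the organs in time was not tested. Most of the pathway was higher after citral in roots at 6 h. At that time 7 of 8 members tested were higher, against 22.6% of 20147 loci. LDOX entered the test only through the 3 citral libraries of 6 h, so its call there adds nothing, and 6 of 7 are left without it. F3'H again was not called (0.07 ± 0.36). A fit of these 2 groups alone called 4, not CHS, CHI or FLS1 (adjusted p = 0.0981, 0.0721 and 0.113), with log2 fold changes of the same size. In that fit DFR and LDOX entered only through the citral libraries, so their calls there add nothing, and F3H and MYB12 are left. Its share of all loci called is not given here.

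CHS had 996, 1787 and 1042 CPM after citral at 6 h, against 93.4, 248 and 951 CPM after ethanol. The groups came close without overlapping, ethanol replicate 3 being far above the other two, and the log2 fold change was 2.11 ± 0.42 (limma adjusted p = 0.000158). CHI had 140, 261 and 143 CPM after citral, against 12.0, 28.7 and 109 CPM after ethanol (2.20 ± 0.38, adjusted p = 2.5e-05). F3H had 251, 467 and 252 CPM after citral, against 38.7, 56.0 and 148 CPM after ethanol (2.19 ± 0.32, adjusted p = 2.87e-06). For both genes every citral library was above every ethanol library. FLS1 had 233, 502 and 262 CPM after citral, against 37.2, 73.1 and 261 CPM after ethanol, so its groups overlapped at ethanol replicate 3 (1.80 ± 0.37, adjusted p = 0.000261).

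The anthocyanin enzymes were detected in all 3 citral libraries at the same time, while DFR elsewhere in roots reached at most 1.51 CPM and LDOX at most 0.685 CPM in libraries of full depth. DFR had 13, 9 and 9 reads (3.78, 2.59 and 2.63 CPM) after citral at 6 h, against 2 reads in 1 ethanol library and the lowest value in the other two. Pooled over libraries, with values at the lowest counted as 0 reads, that is a ratio of 34.0 with an exact 95% interval of 8.7 to 293. The interval covers counting error only, not this scoring. LDOX had 6, 12 and 7 reads (1.74, 3.45 and 2.04 CPM) after citral and no ethanol library above the lowest value, which makes it at least 18.3-fold higher (against 3 reads over the ethanol group). The fitted log2 fold changes were 4.22 ± 0.77 for DFR and 4.18 ± 0.74 for LDOX (adjusted p = 1.99e-05 and 1.07e-05), sizes that depend on how values at the floor are scored. Even at this peak root DFR stayed below its level in untreated shoots, where the lowest library had 17.3 CPM.

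Away from 6 h no root enzyme was called. At 1 h and 3 h MYB12 alone was called, against 21.3% and 21.5% of loci higher. At 3 h citral replicate 2 was high in 5 of the 7 enzymes, with CHS at 108, 541 and 168 CPM after citral, against 162 and 174 CPM after ethanol (0.65 ± 0.67). At 12 and 24 h none of the 8 members tested was called, against 35.9% and 37.8% of loci in either direction, with 0 at an unadjusted p under 0.05 and 0 in limma-trend. Fits of the 2 groups alone called 4 at 12 h (CHS, F3H, F3'H and FLS1, all lower after citral) and 2 at 24 h (CHS higher, F3H lower). The shares of all loci called in those fits are not given here. At 12 h CHS ranged over 158 to 228 CPM after citral, against 238 to 288 CPM after ethanol. F3H ranged over 52.5 to 64.2 CPM after citral at 12 h, against 80.5 to 106 CPM after ethanol, and F3'H over 3.5 to 4.89 CPM, against 6.69 to 8.65 CPM. These 3 genes were thus below ethanol in every library of full depth at 12 h, the other way round from 6 h for CHS and F3H, but none was called in the main fit. At 24 h CHS again lay above: it had 249, 286 and 245 CPM after citral, against 154, 148 and 98.4 CPM after ethanol (0.87 ± 0.45, adjusted p = 0.135). Groups of full-depth libraries also did not overlap for FLS1 at 1 h (citral below), and for CHI (above) and F3'H (below) at 3 h. How many of all loci separate in this way was not counted, and groups this small can separate without a difference. Over the 5 times a citral effect was found for 5 of 8 root members tested (CHS, CHI, F3H, FLS1 and MYB12), against 75.8% of loci, a share below the background; DFR and LDOX had too few reads for a call. It differed between times for F3H and MYB12, 2 of 8, against 59.0% of loci, a count of 1 or 2 over single libraries left out. Without ethanol 6 h replicate 2 a citral effect was found for 3 of these members.

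**Figure D3:**
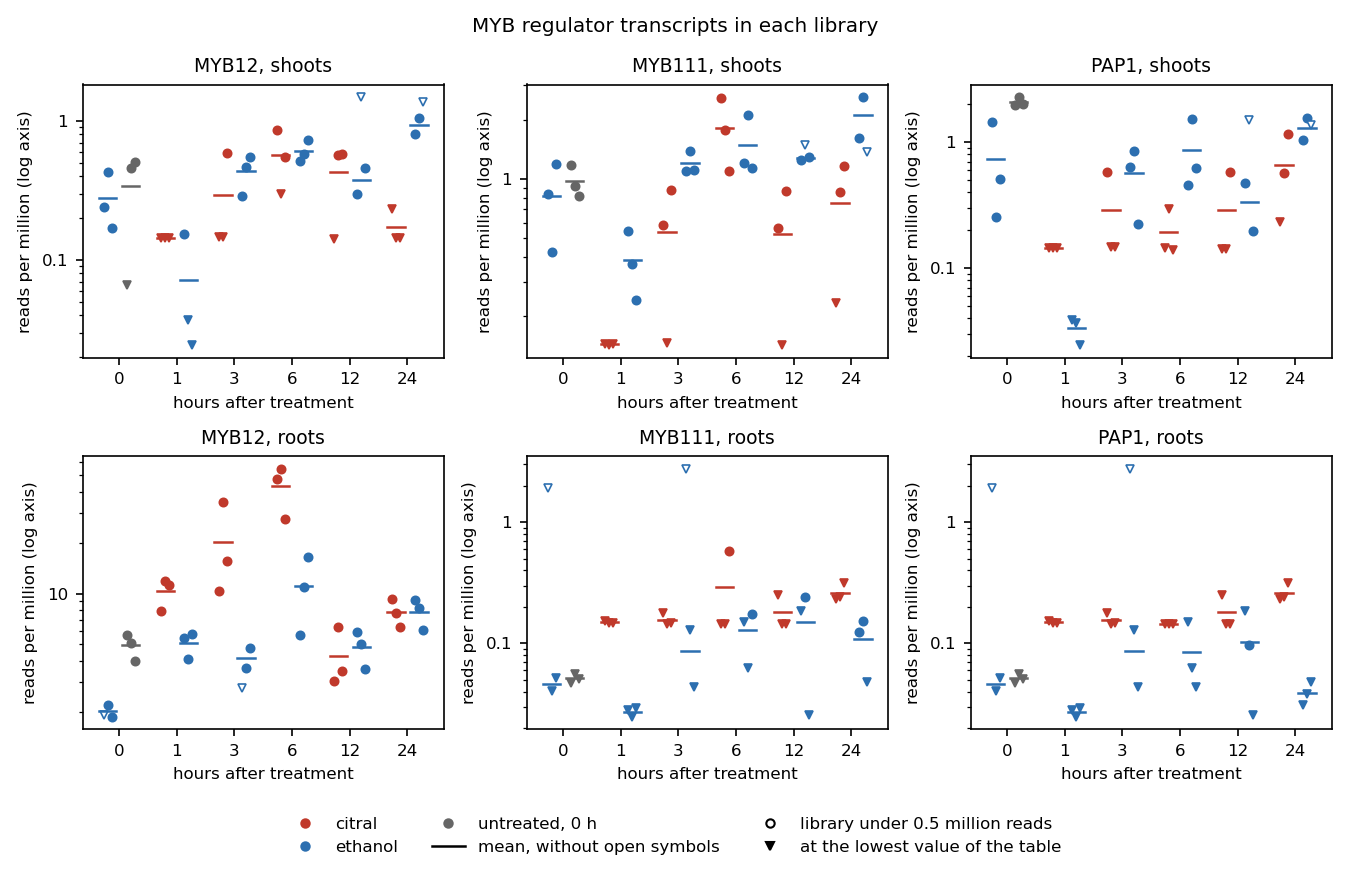
CPM (log axis) of MYB12, MYB111 and PAP1 in each library by hours after treatment, shoots above roots, drawn as for the enzymes. MYB12 in roots reaches 27.8 to 54.9 CPM after citral at 6 h, against 5.71 to 16.5 CPM after ethanol, and most root values of MYB111 and PAP1 are triangles at the lowest value.

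Of the 10 members, MYB12 in roots gave the only call at 1 h. It had 7.91, 11.9 and 11.2 CPM after citral at 1 h, against 5.49, 4.10 and 5.79 CPM after ethanol (1.42 ± 0.35, limma adjusted p = 0.00147). The groups did not overlap, at a time when CHS had 4.26, 2.67 and 3.55 CPM after citral and 15.2, 9.04 and 3.80 CPM after ethanol. At 3 h MYB12 had 10.3, 34.8 and 15.6 CPM after citral, against 3.61 and 4.75 CPM after ethanol (2.34 ± 0.56, adjusted p = 0.00106). At 6 h it had 47.7, 54.9 and 27.8 CPM after citral, against 5.71, 10.9 and 16.5 CPM after ethanol (1.83 ± 0.26, adjusted p = 9.66e-07). By 12 h the groups overlapped, at 4.29 ± 1.79 CPM after citral and 4.85 ± 1.18 CPM after ethanol (SD, n = 3 each). The call at 1 h was lost without ethanol replicate 2 (1.05, adjusted p = 0.102) and that at 3 h without ethanol replicate 3 (2.41, adjusted p = 0.107), which leaves 1 ethanol library of full depth.

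MYB111, the shoot counterpart, was lower after citral at 12 h, with 0.565 and 0.868 CPM and 1 value at the lowest of the table, against 1.25 and 1.30 CPM after ethanol (-1.34 ± 0.50, limma adjusted p = 0.0338). These values rest on 2 and 3 reads after citral, and the call was lost without library quality weights, in limma-trend, and without any 1 library of the 2 groups except ethanol replicate 2. At 24 h the log2 fold change was -1.23 ± 0.54 (adjusted p = 0.0767). PAP1 in shoots was not called at any time after citral. It had 0.573 and 1.16 CPM and 1 value at the lowest of the table after citral at 24 h, against 1.04 and 1.57 CPM after ethanol (-0.97 ± 0.67). At 6 h PAP1 sat at the lowest value in all 3 citral libraries, against 0.458, 1.53 and 0.624 CPM after ethanol (-0.98 ± 0.75). At 1 h all 6 shoot libraries of both treatments were at the lowest value for PAP1, so it was not detectable at this depth. In shoots MYB12 had 0.858 and 0.552 CPM and 1 value at the lowest of the table after citral at 6 h, and 0.515, 0.576 and 0.728 CPM after ethanol.

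**Figure D4:**
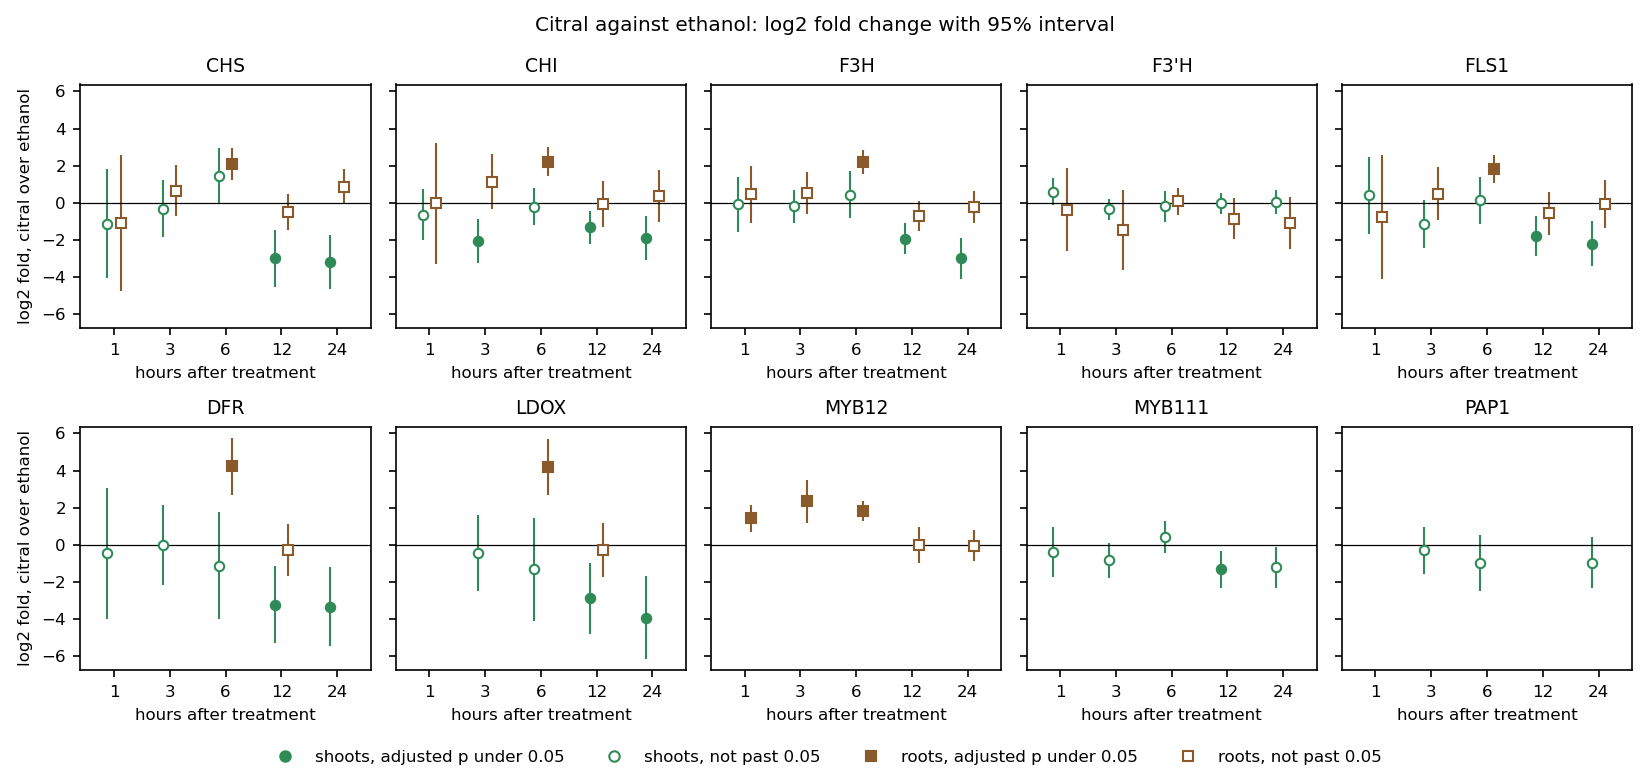
Log2 fold change of citral over ethanol with its 95% interval for each of the 10 members by hours after treatment, shoots as circles left of roots as squares, filled where called; points without enough reads or without a test are not drawn. The filled circles lie at 3, 12 and 24 h and below 0, and the filled squares at 1, 3 and 6 h and above 0.

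The difference between organs was tested itself, as the citral effect in shoots minus the citral effect in roots. It was called lower in shoots for CHI (-3.15 ± 1.17, limma adjusted p = 0.0399) and MYB12 (-2.48 ± 0.91, adjusted p = 0.0353) at 3 h, for DFR (-5.50 ± 1.46, adjusted p = 0.00327) and LDOX (-5.66 ± 1.36, adjusted p = 0.00111) at 6 h, and for CHS (-4.17 ± 1.12, adjusted p = 0.00344) and F3H (-2.74 ± 0.95, adjusted p = 0.024) at 24 h. These are 2 of 10 members tested at each of the 3 times, against 8.72%, 11.3% and 13.4% of 21086 loci lower. MYB12 entered this test only through roots and at 3 h was at the lowest value in 2 of 3 shoot citral libraries, so its call adds nothing and CHI alone is left at that time. At 6 h the log2 fold change of CHS was 1.44 ± 0.73 in shoots and 2.11 ± 0.42 in roots, and the difference was -0.73 ± 1.16 (adjusted p = 0.683). The unweighted means of CHS in shoots ran the other way, at 13.4 ± 5.1 CPM after citral and 16.9 ± 23.9 CPM after ethanol (SD, n = 3 each), with ethanol replicate 2 at 44.5 CPM. At 1 h and 12 h no member was called, against 13.1% and 21.2% in either direction; at 1 h 0 and at 12 h 3 members had an unadjusted p under 0.05, and limma-trend called 0 and 1. Over the 5 times together the effect differed between organs for CHS (adjusted p = 0.00993), CHI (0.0169) and F3H (0.0346), 3 of 10 members tested, against 54.2% of loci. Only 5 of the 10 had enough reads for a call, which limits this share. Without the minimum of reads 8 were called, a count that values at the lowest of the table can enter by depth alone. FLS1 (0.179) and F3'H (0.318) did not pass. At 6 h leaving out single libraries left 2 or 3 calls. At 3 h no call was left without shoot citral replicate 1 or 2, root citral replicate 2, or ethanol replicate 2 or 3 of either organ, and 1 without shoot citral replicate 3. At 24 h none was left without shoot citral or ethanol replicate 2, and 1 without replicate 1 of either. Over the 5 times 1 was left without shoot citral or ethanol 24 h replicate 2.

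**Figure D5:**
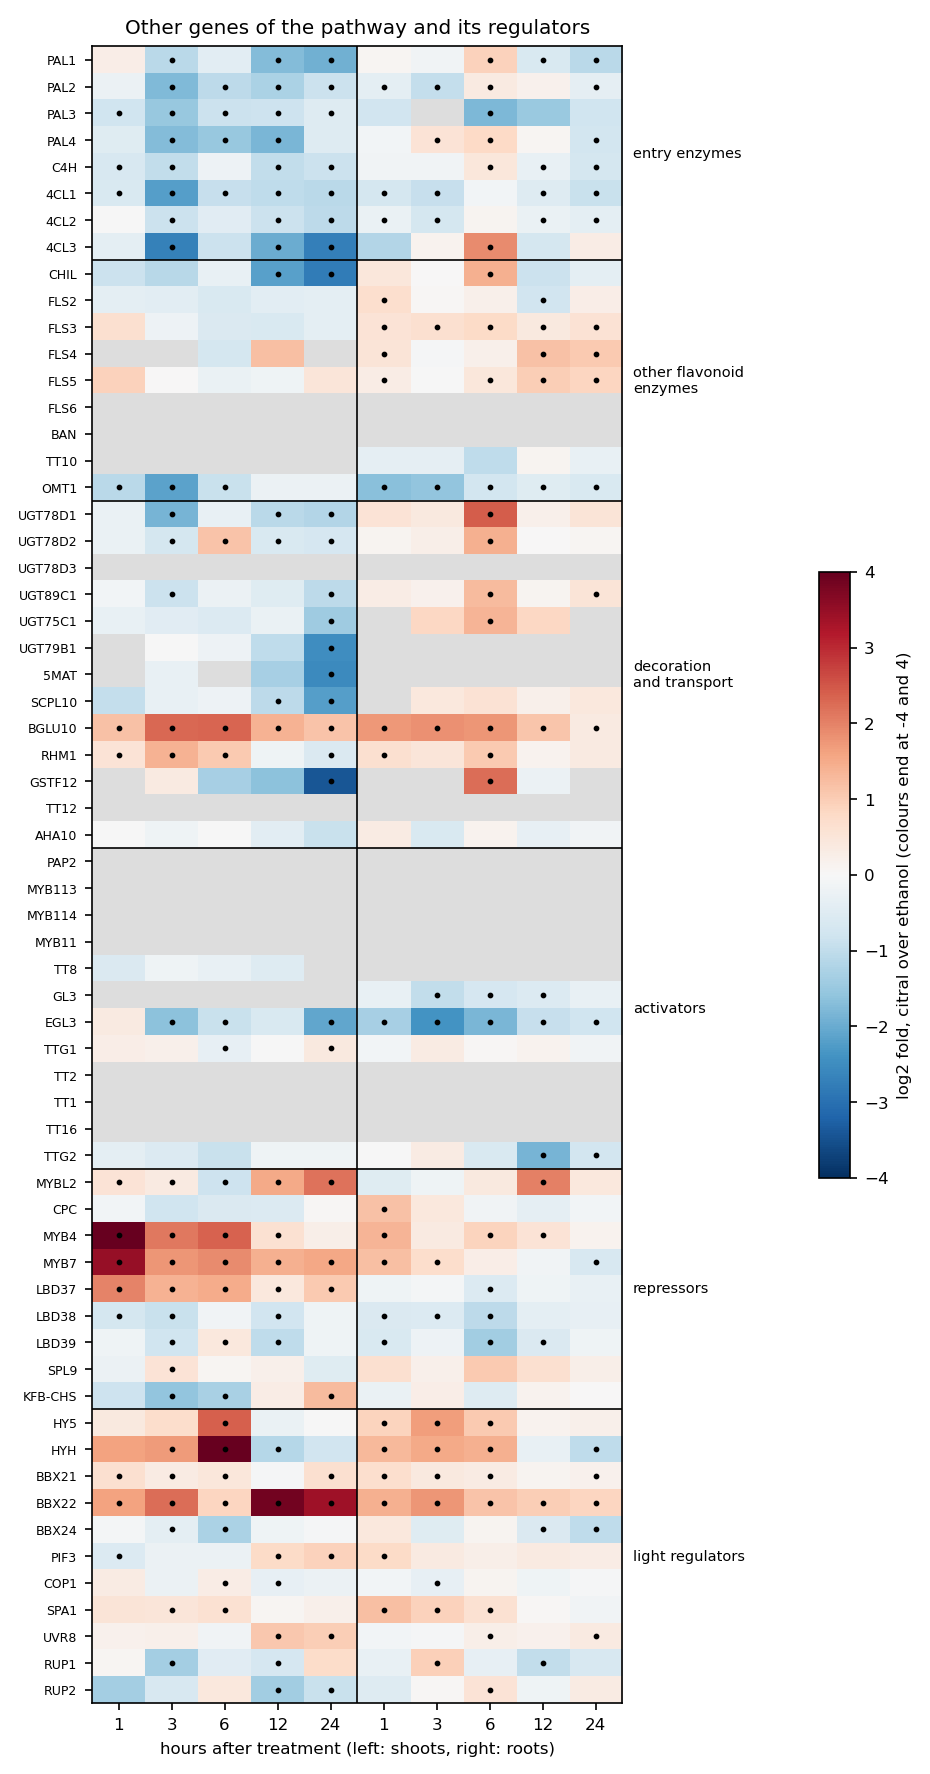
Log2 fold change of citral over ethanol (colour, ending at -4 and 4) for the other genes of the pathway and its regulators, shoots left and roots right, by hours after treatment; dots mark called genes and grey marks genes not in the table, below the filter or with too few reads. In shoots all 8 entry enzymes carry a dot in blue at 3 and 12 h, and BBX22 is red with a dot in all 10 columns.

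The other genes of the pathway were taken from lists made with earlier results known. Of the 8 entry enzymes of phenylpropanoid metabolism (PAL1 to PAL4, C4H and 4CL1 to 4CL3), 8 were lower in shoots after citral at 3 h, 8 at 12 h and 7 at 24 h, with median log2 fold changes of -1.62, -1.13 and -0.96, against 26.4%, 19.0% and 16.9% of all loci lower and medians of -0.08, -0.03 and -0.02. 4CL1, which activates cinnamate-type acids, was lower in shoots at all 5 times, most at 3 h (-2.21 ± 0.19, limma adjusted p = 3.23e-11), as was PAL3, a phenylalanine ammonia-lyase, and PAL2 was lower at 4 times. In roots 4CL1 and 4CL2 were also lower at 4 times each, while PAL2 was lower at 3 and higher at 6 h (0.37 ± 0.09). In roots at 6 h 5 of 8 were higher and 1 lower, against 22.6% and 26.1% of all loci, with 4CL3, the ligase of the flavonoid branch, at 1.89 ± 0.34 and PAL3 at -1.79 ± 0.72. At 1, 3, 12 and 24 h 3, 3, 4 and 6 of 8 were lower in roots and 0, 1, 0 and 0 higher. Over all loci 21.9%, 25.8%, 18.1% and 18.7% were lower in roots at these times, and 21.3%, 21.5%, 17.8% and 19.2% higher. CHIL, a partner protein of CHS, averaged 8.28 ± 1.69 CPM after citral in shoots at 12 h (n = 3), and 37.4 ± 1.6 CPM after ethanol (n = 2), a log2 fold change of -2.17 ± 0.35. In roots at 6 h CHIL was higher (1.43 ± 0.30). FLS3 and FLS5 are relatives of FLS1. FLS3 was higher in roots at all 5 times (log2 folds of 0.38 to 0.77) and FLS5 at 4 of them, most at 12 h (0.99 ± 0.07). OMT1, a methyltransferase that also serves lignin, was lower in roots at all 5 times, most at 1 h (-1.67 ± 0.08).

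Decoration and transport genes were mostly lower in shoots at 24 h and higher in roots at 6 h. In roots at 6 h 7 of 9 tested were higher and 0 lower, with a median log2 fold change of 1.37, against 22.6% of all loci higher and a median of -0.06. Among them were UGT78D1, a flavonol rhamnosyltransferase, at 2.41 ± 0.37, UGT78D2, a 3-O-glucosyltransferase, at 1.43 ± 0.19, and UGT89C1 at 1.27 ± 0.16. In shoots at 24 h 9 of 11 were lower and 1 higher, with a median of -1.17, against 16.9% of all loci lower and a median of -0.02. They included GSTF12, the glutathione transferase needed for anthocyanin uptake into the vacuole, at -3.43 ± 0.97, which was higher in roots at 6 h (2.24 ± 0.60). UGT78D2 was lower in shoots at 3, 12 and 24 h but higher at 6 h (1.15 ± 0.25). The 1 that was higher, BGLU10, an anthocyanin glucosyltransferase, was higher at all 5 times in both organs, with 2.32 ± 0.15 in shoots and 1.76 ± 0.09 in roots at 6 h. RHM1, which makes UDP-rhamnose, was higher in shoots at 1, 3 and 6 h and lower at 24 h (-0.59 ± 0.18).

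Of 9 repressors tested in shoots, 4, 5, 4, 4 and 4 were higher after citral at 1, 3, 6, 12 and 24 h, and 1, 3, 2, 2 and 0 were lower, against 12.5%, 23.5%, 21.5%, 18.7% and 16.1% of all loci higher. MYB4, a repressor of phenylpropanoid genes, averaged 220.0 ± 34.1 CPM after citral in shoots at 1 h and 13.7 ± 3.25 CPM after ethanol (SD, n = 3 each, log2 fold 4.14 ± 0.17, limma adjusted p = 6.5e-20), and was called higher at 4 of 5 times. Its relative MYB7 and the nitrate-responsive repressor LBD37 were higher in shoots at all 5 times, MYB7 by 3.47 ± 0.25 at 1 h and LBD37 by 1.39 ± 0.11 at 3 h. MYBL2, a repressor of anthocyanin synthesis, was higher in shoots at 12 h (1.51 ± 0.16) and 24 h (2.18 ± 0.18) and lower at 6 h (-0.82 ± 0.17). In roots 3, 1, 1, 2 and 0 of 9 repressors were higher at the same times and 2, 1, 3, 1 and 1 lower. Of all loci 17.8% to 22.6% were higher in roots and 18.1% to 26.1% lower, so most of these root counts are near or below the background. There MYB4 was higher at 3 times, with 1.36 ± 0.14 at 1 h, and LBD39 was lower at 3 times, most at 6 h (-1.40 ± 0.22), while MYB7 was higher at 1 and 3 h and lower at 24 h. Among the activators EGL3, a bHLH partner of PAP1, was lower in roots at all 5 times, most at 3 h (-2.38 ± 0.45), and in shoots at 3, 6 and 24 h. Its relative GL3 was lower in roots at 3, 6 and 12 h (-0.98 to -0.54). TTG2, a WRKY factor of seed coat and hair development, was lower in roots at 12 h (-1.86 ± 0.34) and 24 h. TTG1, the WD40 partner of PAP1 and EGL3, moved little in shoots, with -0.33 ± 0.12 at 6 h and 0.38 ± 0.12 at 24 h.

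Of 11 light regulators tested in each organ, 2, 4, 6, 3 and 4 were higher in shoots at 1, 3, 6, 12 and 24 h, and 1, 2, 1, 4 and 1 were lower. In roots 6, 6, 7, 1 and 3 were higher and 0, 1, 0, 2 and 2 lower. Over all loci 12.5%, 23.5%, 21.5%, 18.7% and 16.1% were higher in shoots at these times, and 21.3%, 21.5%, 22.6%, 17.8% and 19.2% in roots. The shares lower were 7.93% to 26.4% in shoots and 18.1% to 26.1% in roots. Several of the counts of light regulators are thus near the background. BBX22, a B-box partner of HY5, was higher at all 5 times in shoots and in roots, and averaged 50.4 ± 3.60 CPM after citral in shoots at 12 h (n = 3), against 3.44 ± 0.579 CPM after ethanol (n = 2). HYH, the close relative of the bZIP factor HY5, was higher in roots at 1, 3 and 6 h (1.30 to 1.53), and in shoots at 3 h (1.71 ± 0.27) and 6 h (4.15 ± 0.42), and lower in shoots at 12 h (-1.15 ± 0.28). BBX21, another B-box factor, was higher at 4 times in each organ, by at most 0.68 ± 0.07. HY5 itself averaged 79.8 ± 9.78 CPM after citral in roots at 6 h and 37.7 ± 5.53 CPM after ethanol (1.06 ± 0.12), and 25.5 ± 5.17 and 6.38 ± 4.11 CPM in shoots at 6 h (2.38 ± 0.31). Whether these factors act on the flavonoid genes here was not tested. The clock gene LHY was lower after citral in shoots at 3 h (log2 fold -2.20), 12 h (-3.91) and 24 h (-3.12) and in roots at the same times (-1.55, -4.10 and -3.54), and its part in the later differences was not tested.

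How closely the members followed CHS over groups differed between members and organs. Over the 12 group means of each organ, the correlation with CHS (log2 CPM, a description without a test) was 0.83 to 0.94 in shoots for CHI, F3H, FLS1, DFR and LDOX, 0.63 to 0.79 for the MYB factors and 0.35 for F3'H. In roots it was 0.95 for CHI, F3H and FLS1, 0.79 for F3'H, 0.63 for DFR, 0.58 for LDOX, 0.51 for MYB111, 0.36 for MYB12 and 0.28 for PAP1. Most root libraries held MYB111 and PAP1 at the lowest value, where CPM follows the depth of the library. Their root values therefore cannot be read as likeness of expression. Many root libraries also held DFR and LDOX at the lowest value, which limits those values too. The groups share libraries and depth across genes, so a common library effect enters every such value. Among 15070 loci expressed in shoots the closest to CHS was CHIL (r = 0.955), followed by AT5G19290, BAM2, AT5G25590 and ARF10 (0.916 to 0.935). Among 15950 loci in roots the closest were KAT5 (0.961), ANTR2, 4CL3, PHR1 and AT4G18593 (0.948 to 0.953). For PAP1 in shoots they were HMT3 (0.919), ANNAT4, IPMI2, GSTU20 and AT1G21440 (0.892 to 0.913).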

How the data were processed

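RNA of shoots and roots was sequenced in 72 libraries. The authors deposited 1 table of whole numbers for 22122 loci, a score with a lowest value of 1, scaled by TMM according to its name. The build was TAIR10, as the submitters' processing notes have it. Which aligner and counter were used is not given in the sources used here. The deposited scores behaved as whole reads multiplied by 1 factor per library (0.668 to 1.31) and rounded, so reads were recovered from them, with values at the lowest scored as 0.5 read. In the pooled ratios these values were scored as 0 reads. All 72 columns were used.

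Loci with 1 CPM in 3 libraries were tested per organ (19571 in shoots, 20147 in roots) and jointly (21086) with limma 3.58.1 in R 4.3.3, using TMM scaling, precision weights and library quality weights over all groups. A count model was not used, because the deposited values are not counts. The minimum of 3 reads in 2 libraries for a call was added after the values were seen, since loci at the lowest value separate by depth alone. Scripts were tested on simulated data. Among 72 pairs of libraries within groups 0 were identical, and the lowest variance was 1.18 times sampling noise.

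The 10 members and all gene lists were chosen with earlier results of these data known. Besides the members, the text names from each list and organ the 3 loci called at most times, and the 5 loci most like CHS and PAP1; C4H, PAL1, PAL4, 4CL3, HY5, UGT78D1 and GSTF12 were named after their values were seen. Alternatives were other scalings, filters, pseudocounts in limma-trend, no quality weights, fits of 2 groups, and leaving out libraries.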

Additional observations from a re-analysis of the deposited data

Results flagged for a closer look

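The log2 effect of citral against ethanol was called different between shoots and roots for 6 of the values above. Each came from a test of that difference itself and is given as the shoot effect minus the root effect. At 3 h they were CHI (-3.15) and MYB12 (-2.48). MYB12 entered this test only through roots and lies near the lowest value in shoots, so its call adds nothing. At 6 h they were DFR (-5.50) and LDOX (-5.66), both near the lowest value in root ethanol libraries. At 24 h they were CHS (-4.17) and F3H (-2.74). Leaving out single libraries left 0 to 2 calls at 3 h and at 24 h, and 2 or 3 at 6 h.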

How the results depend on the processing

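Counts of members called were compared over the alternatives, and no member's value reversed its direction while called. With median-of-ratios size factors, all 180 results stayed on their side of the threshold, and with the authors' factors 179 did. In limma-trend with pseudocounts of 0.5 and 2 CPM the shoot counts became 0 and 0 at 3 h (1 in the chosen fit), 4 and 4 at 12 h (7), and 0 and 1 for ethanol against untreated (7); the effect differing between times became 2 and 3 in shoots (1) and 5 and 5 in roots (2), and the organ difference 5 and 6 at 6 h (2) and 1 and 3 at 12 h (0). Without quality weights they were 4 at 12 h in shoots, 1 for shoot ethanol against untreated, and 1 for the root effect differing between times. Fitting only the 2 groups compared gave 2 in shoots at 3 h and 3, 2, 4, 4 and 2 in roots at 1, 3, 6, 12 and 24 h (1, 1, 7, 0 and 0), and 6 for root ethanol against untreated (3). The root count at 6 h includes DFR and LDOX, which entered that fit only through the citral libraries. No filter gave 2 for the shoot effect differing between times, and a filter of 5 CPM gave 1 for the organ difference at 3 h. Scoring the lowest value as 0 reads gave 1 there and 1 for the root effect differing between times. Leaving out the 4 shallow libraries gave 1 for that effect and 1 for the organ difference at 24 h. Without the minimum of reads, an alternative chosen after seeing the data, counts were 3 in roots at 1 h, 4 for the root effect differing between times, and 1, 1 and 6 for the organ difference at 1, 12 and 24 h and 8 over all times. The cause of these shifts was not tested.

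Leaving out 1 library at a time gave these lowest and highest counts. In shoots they were 0 and 0 at 1 h, 1 and 1 at 3 h, 0 and 1 at 6 h, 0 and 7 at 12 h, 2 and 6 at 24 h, 3 and 7 for ethanol against untreated, 6 and 7 for any citral effect, 0 and 3 for an effect differing between times, and 3 and 8 for the ethanol course. In roots they were 0 and 1 at 1 h, 0 and 1 at 3 h, 6 and 7 at 6 h, 0 and 0 at 12 and 24 h, 0 and 4 for ethanol against untreated, 3 and 6 for any effect, 1 and 2 for an effect differing between times, and 2 and 6 for the ethanol course. For the organ difference they were 0 and 0 at 1 h, 0 and 2 at 3 h, 2 and 3 at 6 h, 0 and 1 at 12 h, 0 and 2 at 24 h, and 1 and 4 over all times, and for untreated organs 7 and 9. Of the members' single results that still had a test and enough reads, 104 lost and 9 gained a call in this way, and 2191 did neither. Calls lost because a locus then missed the filter or the minimum of reads are not in these counts. No paired analysis was possible because the labels carry no replicate numbers. Depth limits the genes under about 1 CPM after citral.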
